A study of Chromochloris zofingiensis with 12 samples.

Results

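The response of *Chromochloris zofingiensis* genes to high light was compared between cultures fed 1 mM and 10 mM nitrate. For each gene the change from low light (LL) to high light (HL) at 10 mM nitrate was subtracted from the change at 1 mM nitrate, and this difference of differences is called the interaction. It was computed on log2(FPKM + 1) after quantile normalization, where FPKM counts fragments per kilobase of transcript and scales them to the size of the library. A positive interaction says that the response to light was more positive, or less negative, at 1 mM than at 10 mM nitrate. All 12 libraries of the series were used. Of 15274 genes listed, 358 were at 0 in all libraries, and the other 14916 were tested. No measured difference was used to choose them.

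Light in excess of what photosynthesis can use leads a green alga to adjust its antenna, its photoprotective pigments and its repair enzymes. Nitrogen limitation slows the synthesis of protein and chlorophyll, so that the same irradiance can become excessive. In *C. zofingiensis* both conditions are known for the accumulation of secondary carotenoids such as astaxanthin. Carotenoids are made from phytoene, which desaturases and isomerases turn into lycopene, and cyclases then send lycopene into the branch of lutein or into that of β-carotene. From β-carotene, hydroxylases lead to zeaxanthin and on to violaxanthin and neoxanthin, while ketolases lead to canthaxanthin and astaxanthin.

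The alga, strain CCAP 211/14, is a unicellular green microalga, and all cultures were continuous photoautotrophic cultures diluted at 0.5 d−1 and sampled 4 h into the light period. At the surface of the reactor the peak irradiance, in µE m−2 s−1, was 300 for the LL cultures and 1000 for the HL cultures, each with 1 or 10 mM nitrate in the feed. This gives 4 conditions, named by light and nitrate, with 3 libraries each. They are LL 10 mM and HL 10 mM at the higher nitrate level, and LL 1 mM and HL 1 mM at the lower. The study states that the light available inside a culture also depends on its biomass concentration. The step in light that the cells received may therefore differ between the nitrate levels, which cannot be told apart from nitrate itself. By the methods of the study, sampling ran over 3 days in a row. Which library belongs to which day, and whether a condition had more than 1 reactor, is not given in the sources used here, so that p-values cover only the spread among these libraries, which may be technical. The unit of FPKM was inferred from the values, which carry no read counts, and the depth of each library is therefore unknown. Libraries of a condition had a Pearson correlation of at least 0.987 across genes. The median FPKM of a library ranged from 12.6 to 20.8, and the 6 libraries at 10 mM nitrate had the lower medians.

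The light response differed between the nitrate levels for 817 genes, which is 5.48% of the genes tested. Genes were called by limma at an adjusted p under 0.05, by the method of Benjamini and Hochberg over all genes. Standard errors are given as SE below. The interaction was positive for 463 genes (3.1%) and negative for 354 (2.37%). It reached 2-fold or more for 266 genes (1.78%), of which 176 were positive (1.18%) and 90 negative (0.603%). Light itself changed 1712 genes at 10 mM nitrate (11.5%), with 866 higher (5.81%) and 846 lower (5.67%) in HL, and 781 genes at 1 mM (5.24%), with 421 higher (2.82%) and 360 lower (2.41%). Across all genes the light response had an SD of 0.330 on the log2 scale at 10 mM and 0.265 at 1 mM. The number of interactions depended strongly on single libraries. It was 563 without LL 10 mM replicate 1 and 924 without HL 10 mM replicate 3. It moved by more than 1.5 times without any of the other 10, to 371 and 352 without LL 10 mM replicates 2 and 3, to 376 and 330 without HL 10 mM replicates 1 and 2, to 308, 202 and 1421 without LL 1 mM replicates 1, 2 and 3, and to 404, 329 and 375 without HL 1 mM replicates 1, 2 and 3. None of the 817 genes changed the sign of its interaction in these 12 fits. The count at 1 mM moved as far without each library of that nitrate level, to 176 higher and 134 lower without LL 1 mM replicate 1, 190 and 143 without replicate 2, 726 and 610 without replicate 3, 218 and 176 without HL 1 mM replicate 1, 206 and 178 without replicate 2, and 251 and 213 without replicate 3, and that at 10 mM moved only without HL 10 mM replicate 1, to 537 and 544. Without quantile normalization, which moved the median light response over all genes from −0.004 to 0.10 at 1 mM, the share of higher genes among those called was 73.3% in place of 50.6% at 10 mM and 81.3% in place of 53.9% at 1 mM, and with scaling of the libraries to the same median it was 51.7% and 40.7%. The positive share of the interactions was 56.7% with quantile normalization, 55% without it and 46.5% with median scaling.

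The light responses at the nitrate levels rest on separate libraries and were weakly related. Across the 14916 genes, which are not independent replicates, the responses at 10 mM and 1 mM had a Pearson r of 0.135 and a Spearman rho of 0.0137, and r was 0.147 over the 13054 genes with a mean of at least 1 FPKM. Of the 866 genes higher in HL at 10 mM, 565 (65.2%) had a positive response at 1 mM, against 48.6% of all genes, and 169 (19.5%) were called higher there and 14 (1.62%) lower. Of the 846 genes lower in HL at 10 mM, 355 (42%) had a positive response at 1 mM, and 150 (17.7%) were called lower there and 21 (2.48%) higher. Read from the other side, the shared 169 genes are 40.1% of the genes higher at 1 mM, and the shared 150 genes are 41.7% of those lower at 1 mM. Responses of 2-fold or more were called for 1.6% of the genes at 10 mM and 0.677% at 1 mM. Of the 70 genes (0.469%) that rose 2-fold or more at 10 mM, 32 (45.7%) were called higher at 1 mM, and of the 41 (0.275%) that rose 2-fold or more at 1 mM, 27 (65.9%) were called higher at 10 mM. Of the 168 genes (1.13%) that fell 2-fold or more at 10 mM, 50 (29.8%) were called lower at 1 mM, and of the 60 (0.402%) that did so at 1 mM, 38 (63.3%) were called lower at 10 mM.

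**Figure D1:**
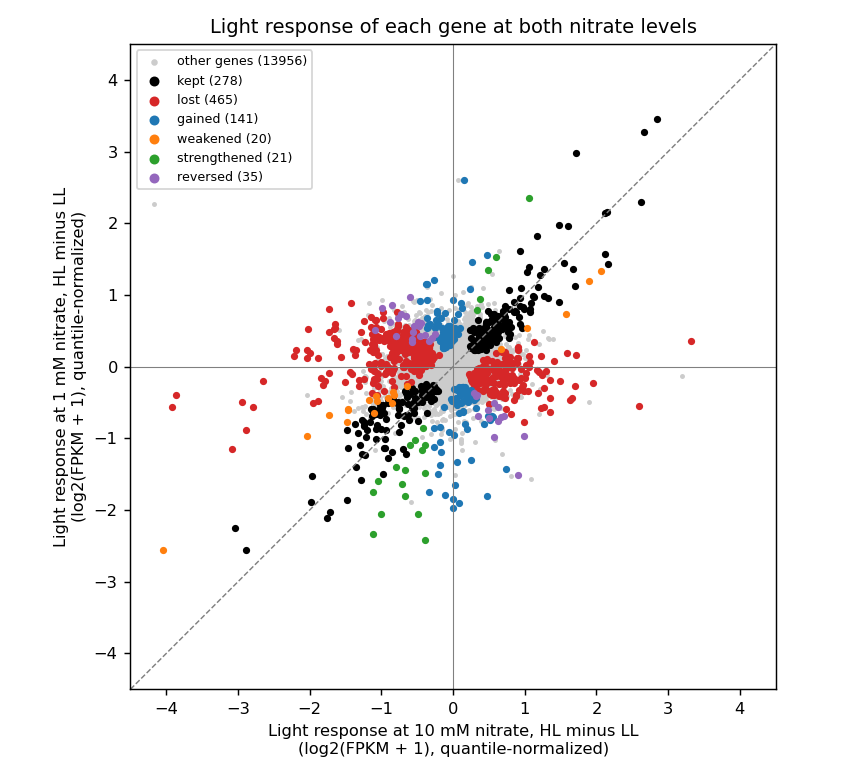
Light response at 10 mM nitrate (horizontal axis) against that at 1 mM nitrate (vertical axis), each as HL minus LL on the quantile-normalized log2(FPKM + 1) scale, with 1 point per gene and the dashed line marking equal responses. The 278 kept genes follow the dashed line, the 465 lost genes spread along the horizontal axis, the 141 gained genes along the vertical axis, and the 35 reversed genes lie in the upper left and lower right quadrants.

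Genes were sorted by which of their responses passed the test and by the interaction. A response was called kept where both passed in the same direction and no interaction was called, and strengthened or weakened where an interaction was called as well. It was called lost or gained where the interaction was called and only the response at 10 mM or only that at 1 mM passed, and reversed where both passed in opposite directions. By this sorting 278 genes kept their light response, 21 strengthened it, 20 weakened it, 465 lost it, 141 gained it and 35 reversed it. A further 135 genes had an interaction with neither response called. In each of them the mean moved one way at 10 mM and the other way at 1 mM. For 893 genes called at 10 mM only and 286 called at 1 mM only no interaction was called, so a difference between the nitrate levels was not shown. No gene had opposite called responses without an interaction. The last interaction inside the threshold was that of Cz15g16020 (adjusted p = 0.04997) and the first outside it was that of Cz07g25030 (adjusted p = 0.05002).

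**Figure D2:**
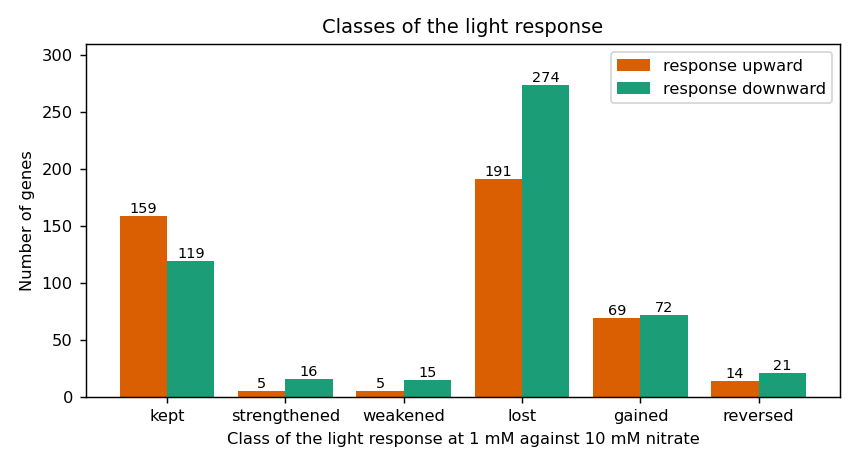
Number of genes (vertical axis) in each class of light response, split into responses upward and downward in HL, where the direction is that at 10 mM nitrate for kept, weakened, lost and reversed genes and that at 1 mM for strengthened and gained genes. Lost responses are the most frequent class, with 274 downward and 191 upward, followed by kept ones with 119 and 159.

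Loss of the response at 1 mM nitrate was the most frequent kind of interaction. With quantile normalization more of the lost responses were falls in HL than rises, and the counts of other settings were not split by direction. Of the 465 genes, 191 rose and 274 fell in HL at 10 mM. The genes that fell had a median response of −0.70 at 10 mM and 0.23 at 1 mM, with a median interaction of 0.96. The genes that rose had 0.60 and −0.15, with a median interaction of −0.72. Over all genes tested the median interaction was −0.03. The HL and LL libraries overlapped at 1 mM in 299 of the 465 genes. The share without overlap, in either direction, was larger in this class than the 26.4% over all genes tested. The class favours this, since a called interaction selects for responses at 1 mM that oppose those at 10 mM. A lost response is one not called at 1 mM, where it may be absent, smaller or opposite. The response at 1 mM had the sign of that at 10 mM in 86 of the 465, a number that the definition of the class keeps low. Some of these genes were close to absence at 1 mM, where the mean FPKM was under 1 in both LL and HL for 23 of the genes that had risen and 13 of those that had fallen. The median level of the 274 genes that fell was 3.71, 2.81, 3.74 and 3.87 on the log2(FPKM + 1) scale in LL and HL at 10 mM and in LL and HL at 1 mM, respectively. The lowest of the 4 means was that of HL 10 mM in 219 of them. The median level of the 191 genes that rose was 3.07, 3.97, 3.61 and 3.30 in the same order, and the highest mean was that of HL 10 mM in 147 of them. By the definition of the class, LL 10 mM could not be the lowest in genes that fell or the highest in genes that rose. Leaving out single libraries gave between 146 (without LL 1 mM replicate 2) and 566 (without HL 10 mM replicate 3) lost genes. Without quantile normalization there were 781, of which 338 were among the 465, and with median scaling there were 812, of which 378 were among them.

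The gene that lost its rise most was Cz13g11150, which, like all genes described by identifier alone below, the files do not pair with a product. Its deposited FPKM was 0.587, 0.581 and 0.861 in LL 10 mM and 10.3, 9.17 and 7.56 in HL 10 mM, and all HL libraries lay above all LL libraries. Outside the carotenogenic list, the naming rule required such separation in every response that the class of a gene calls. There it is not a result of its own. At 1 mM nitrate Cz13g11150 was high in both light conditions, with 31.5, 40.5 and 42.7 in LL and 27.6, 29.3 and 28.5 in HL. All HL libraries lay below all LL libraries at that level. The light response was 2.60 (SE 0.14, adjusted p = 6.17e-06) at 10 mM and −0.55 (SE 0.14, adjusted p = 0.0536) at 1 mM. The interaction of −3.15 (SE 0.20, adjusted p = 2.58e-05) was the most negative of the genes that met the naming rule, and it was called under each alternative tried (adjusted p 7.62e-06 to 0.00749). Its response at 1 mM was called as a fall without HL 10 mM replicate 1 (adjusted p = 0.0497), HL 10 mM replicate 3 (0.0256) or LL 1 mM replicate 1 (0.0323). It was also called with genes under 1 FPKM left out (0.0452), with a trended and robust prior (0.0428) and on the linear scale (0.0222).

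Cz01g41040 had the next most negative interaction. Its deposited FPKM was 0.2545, 0.299 and 0.654 in LL 10 mM and 11.3, 12.3 and 13.3 in HL 10 mM. Its values at 1 mM were 2.91, 2.80 and 3.07 in LL and 4.56, 5.73 and 4.43 in HL, so that the libraries did not overlap at either nitrate level and the step was far smaller at 1 mM. The responses were 3.31 (SE 0.12) and 0.36 (SE 0.12, adjusted p = 0.125), and the interaction was −2.96 (SE 0.17, adjusted p = 1.08e-05). Without quantile normalization the response at 1 mM was 0.58 and passed the test (adjusted p = 0.0198).

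The 2 named genes with the most positive interactions fell from an intermediate level to near absence in HL at 10 mM. At 1 mM, Cz07g14090 was near absence in both light conditions, and Cz05g13170 was low, with up to 2.47 FPKM in a library. The deposited FPKM of Cz07g14090 was 15.5, 20.3 and 18.1 in LL 10 mM and 0.163, 0.240 and 0.460 in HL 10 mM. At 1 mM it was 0.328, 0.346 and 0.926 in LL, and in HL it was listed at 0 in 2 libraries and at 0.170 in the other. All HL libraries lay below all LL libraries at both nitrate levels, and LL 10 mM stood apart from the other 3 conditions. The response was −3.86 (SE 0.14, adjusted p = 2.71e-07) at 10 mM and −0.40 (SE 0.14, adjusted p = 0.121) at 1 mM, and the interaction was 3.46 (SE 0.19, adjusted p = 9.22e-06). When the pseudocount was 0.1, the response at 1 mM was −1.79 and passed the test (adjusted p = 0.0167), and the gene then counted as weakened in place of lost. Cz05g13170 had a deposited FPKM of 8.44, 19.96 and 13.8 in LL 10 mM. In HL 10 mM it was listed at 0 in 2 libraries and at 0.192 in the third. At 1 mM its values were 2.44, 0.474 and 1.38 in LL, and 2.47 and a listing of 0 in 2 libraries in HL, so that the light conditions overlapped. Its interaction of 3.37 (SE 0.57, adjusted p = 0.0129) did not pass with a pseudocount of 0.1 (adjusted p = 0.111).

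Reversals in which both responses passed the test were few, and their genes had a lower median level than all genes tested. The means also moved in opposite directions in most lost and gained genes, where only 1 response passed. Of the 35 reversed genes, 14 rose in HL at 10 mM and fell at 1 mM, and 21 fell at 10 mM and rose at 1 mM. The median response was 0.57 at 10 mM and −0.68 at 1 mM for the former, and −0.57 and 0.56 for the latter. Among the 21 genes, 20 had their highest mean in HL 1 mM and 20 their lowest in HL 10 mM. The definition of the class favours this order, since it leaves only LL 10 mM or HL 1 mM as the highest. Likewise only HL 10 mM or LL 1 mM can be the lowest. None of the 35 changed by 2-fold or more in both responses. The median over genes of their mean deposited FPKM was 10.1, against 16.8 over all genes tested. The number of reversed genes ranged from 12 (without LL 1 mM replicate 1 or 2) to 112 (without LL 1 mM replicate 3). Without quantile normalization 18, and with median scaling 17, of the 35 genes were in the class.

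The larger reversal from a rise to a fall was that of Cz14g15210. Its deposited FPKM was 0.291, 0.268 and 0.726 in LL 10 mM and 0.789, 1.01 and 1.87 in HL 10 mM. At the lower nitrate level it was 4.62, 4.34 and 6.11 in LL and 0.752, 0.775 and 1.89 in HL. The libraries of HL lay above those of LL at 10 mM and below them at 1 mM, without overlap, as the naming rule required. The responses were 0.90 (SE 0.16, adjusted p = 0.00529) and −1.50 (SE 0.16, adjusted p = 0.000419), and the interaction was −2.40 (SE 0.23, adjusted p = 0.000583). The rise at 10 mM did not pass without quantile normalization (adjusted p = 0.086) or with median scaling (0.0634).

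Cz08g20170 reversed from a fall to a rise. Its deposited FPKM was 1.285, 0.681 and 0.829 in LL 10 mM, and in HL 10 mM it was listed at 0 in 2 libraries and at 0.359 in the other. At 1 mM it was 2.09, 3.22 and 4.83 in LL and 7.77, 6.36 and 8.86 in HL. All HL libraries exceeded all LL libraries there, which the naming rule required. The response was −0.997 (SE 0.21, adjusted p = 0.0118) at 10 mM and 0.82 (SE 0.21, adjusted p = 0.0473) at 1 mM. The interaction of 1.82 (SE 0.29, adjusted p = 0.0104) was called under each alternative tried (adjusted p 0.00652 to 0.0368). The rise at 1 mM was not. It was lost in 9 of the 12 leave-one-out fits (adjusted p 0.0585 to 0.176), with a pseudocount of 0.1 (0.325), with median scaling (0.0516) and with unmoderated variances (0.0953). The leave-one-out fits that kept it were those without LL 10 mM replicate 1, without HL 10 mM replicate 3 and without LL 1 mM replicate 3. On the linear scale the fall at 10 mM was lost (adjusted p = 0.116).

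**Figure D3:**
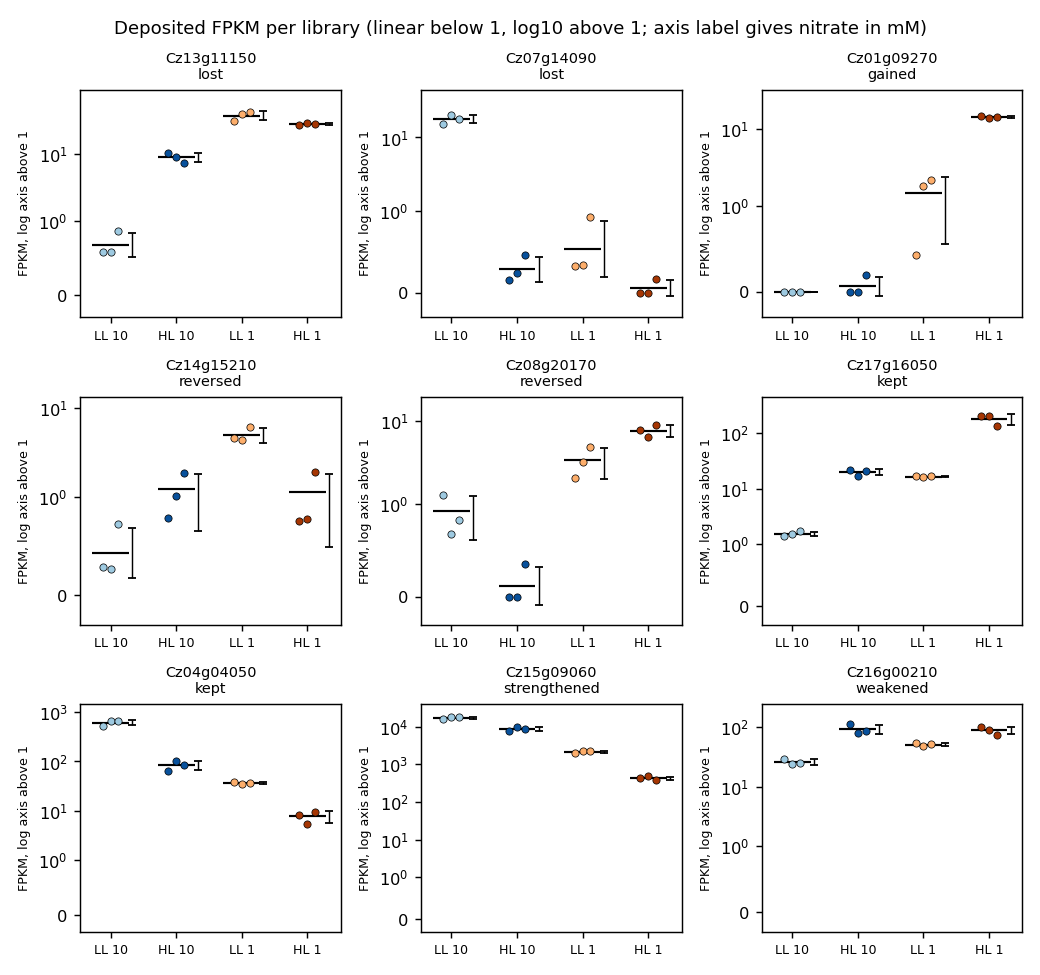
Deposited FPKM (vertical axis, linear below 1 and log10 above) of 9 genes in the 3 libraries of each of the 4 conditions, with horizontal lines for means and bars for the SD over 3 libraries. In Cz13g11150 and Cz07g14090 the step between LL and HL is large only at 10 mM, in Cz14g15210 and Cz08g20170 it points in opposite directions, and in Cz17g16050 and Cz04g04050 it is similar at both nitrate levels.

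The light response was kept by 278 genes, of which 159 rose and 119 fell in HL at both nitrate levels. The genes that rose had a median response of 0.57 at 10 mM and 0.53 at 1 mM, and those that fell had −0.71 and −0.57. The median half-width of the 95% confidence interval of their interactions was 0.29 on the log2 scale, without adjustment for the number of genes. The smallest interaction called in any gene was 0.32 in size. Kept responses may therefore differ between the nitrate levels by more than this half-width. The highest mean was in HL 1 mM for 107 of the 159 genes that rose, and the lowest was in HL 1 mM for 102 of the 119 that fell. By the definition of the class, only the HL conditions could hold these places. The number of kept responses was 169 without LL 1 mM replicate 1 and 174 without HL 1 mM replicate 2.

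The largest kept rise by the naming rule was that of Cz17g16050. Its deposited FPKM was 1.44, 1.52 and 1.71 in LL 10 mM and 21.9, 17.3 and 21.0 in HL 10 mM. Under 1 mM nitrate it was 16.7, 16.1 and 16.8 in LL and 206, 202 and 136 in HL. The levels of HL 10 mM and LL 1 mM were close, and HL 1 mM stood above all other libraries. The responses were 2.85 (SE 0.13, adjusted p = 1.83e-06) and 3.46 (SE 0.13, adjusted p = 1.61e-07), and the interaction of 0.61 (95% confidence interval 0.19 to 1.03, adjusted p = 0.0859) did not pass the test. Without HL 1 mM replicate 3, the lowest library of its condition, the interaction was 0.79 and passed (adjusted p = 0.00852). On the linear scale it was 136 FPKM and passed as well (adjusted p = 0.00335), while the rise at 10 mM did not (0.379).

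The largest kept fall was that of Cz04g04050. Its deposited FPKM was 529, 657 and 649 in LL 10 mM and fell to 65.2, 102 and 85.7 in HL 10 mM. In LL 1 mM it was 39.2, 35.2 and 36.6, and in HL 1 mM it fell to 8.21, 5.49 and 9.47. No library of one condition overlapped with those of another, and the levels fell from LL 10 mM over HL 10 mM and LL 1 mM to HL 1 mM. The responses were −2.89 (SE 0.17, adjusted p = 7.85e-06) and −2.56 (SE 0.17, adjusted p = 1.18e-05), and the interaction was 0.33 (95% confidence interval −0.21 to 0.87, adjusted p = 0.46). On the linear scale the fall was 514 FPKM smaller at 1 mM (adjusted p = 5.99e-06), since the level in LL was already lower there, and the fall at 1 mM did not pass on that scale (0.401).

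Of the 21 strengthened responses, 16 were falls, and these belonged to very abundant transcripts. The mean deposited FPKM of the 16 genes had a median of 4609 in LL 10 mM against 2514 in HL 10 mM, and of 1103 in LL 1 mM against 428 in HL 1 mM. All 16 had their highest mean in LL 10 mM and their lowest in HL 1 mM, and 11 were among the 100 most abundant genes. The definition of the class leaves only LL conditions for the highest mean and HL conditions for the lowest. Their strengthening depended on the normalization. Quantile normalization gives the top ranks of all libraries the same values. The median response of the 16 genes was −0.64 at 10 mM and −1.54 at 1 mM with it, and −0.96 and −1.46 without it. The median fall was thus smaller with it at 10 mM and larger at 1 mM, and the reason was not tested. Without quantile normalization, as with median scaling, 7 of the 16 interactions were called, although all 16 stayed below 0 (−1.28 to −0.10 without it). On the linear scale none of the 16 was among the strengthened falls. Single libraries mattered as well. Without LL 10 mM replicate 1, 2 or 3, the class held 9, 7 and 7 of the 16 genes. Without HL 10 mM replicate 2 it held 8 of them, without LL 1 mM replicate 1 or 2 it held 9 and 8, and without HL 1 mM replicate 2 it held 9.

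The largest of them was Cz15g09060, with a deposited FPKM of 16024, 17686 and 18027 in LL 10 mM and 7463, 9632 and 8457 in HL 10 mM. With 1 mM nitrate the values were 1973, 2202 and 2201 in LL and 423, 477 and 390 in HL. The conditions did not overlap, and light lowered the level at both nitrate levels. The responses after quantile normalization were −0.39 (SE 0.08) and −2.42 (SE 0.08), and the interaction was −2.03 (SE 0.12, adjusted p = 1.08e-05). The quantile step gave all libraries of LL 10 mM the same value, 7969, and so removed the spread within that condition. These SE and this adjusted p of limma therefore depend on that step. Without quantile normalization the responses were −1.02 and −2.30 and the interaction was −1.28 (adjusted p = 0.00385). The fall at 10 mM after quantile normalization was lost without LL 10 mM replicate 1 (adjusted p = 0.0544), 2 (0.0589) or 3 (0.0595). On the linear scale the fall was larger at 10 mM, with an interaction of 775 FPKM (adjusted p = 0.622), and the fall at 1 mM did not pass (0.110).

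Only 5 genes strengthened a rise, and the largest of these, Cz09g05020, was near absence at 10 mM. It was listed at 0 in 1 library of LL 10 mM and at 0.0973 and 0.336 in the others, and at 0.954, 0.650 and 0.951 in HL 10 mM. At 1 mM its deposited FPKM was 2.24, 3.73 and 2.70 in LL and 22.6, 16.8 and 18.1 in HL. The responses were 1.05 (SE 0.18) and 2.35 (SE 0.18), and the interaction was 1.29 (SE 0.25, adjusted p = 0.022). With a pseudocount of 0.1 the interaction was 0.14 (adjusted p = 0.925), and it was also lost without LL 10 mM replicate 2 (adjusted p = 0.0535), HL 10 mM replicate 2 (0.0566) or LL 1 mM replicate 1 (0.0539) or with unmoderated variances (0.0519). Its rise at 10 mM did not pass on the linear scale (adjusted p = 0.447).

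Weakened responses were seen in 5 genes that rose and 15 that fell. Cz16g00210, the larger by the naming rule among the rises, had a deposited FPKM of 29.1, 24.4 and 24.8 in LL 10 mM and 111, 81.3 and 86.9 in HL 10 mM. With less nitrate it was 53.3, 48.0 and 52.0 in LL and 101, 90.0 and 74.9 in HL. The HL levels overlapped between the nitrate levels, while LL was higher at 1 mM. The responses were 1.57 (SE 0.13) and 0.73 (SE 0.13), and the interaction of −0.84 (SE 0.18, adjusted p = 0.0286) was lost in 6 fits that left out 1 library, without LL 10 mM replicate 2 (adjusted p = 0.0625) or 3 (0.0639), LL 1 mM replicate 1 (0.0692) or 2 (0.0631), or HL 1 mM replicate 2 (0.0555) or 3 (0.0525), and with unmoderated variances (0.0555) or on the linear scale (0.108). Cz16g02180 was listed at 0 in all 3 libraries of HL 10 mM, against 21.2, 10.7 and 9.18 FPKM in LL 10 mM. With 1 mM nitrate the values were 60.0, 44.7 and 37.7 in LL and 9.70, 8.20 and 10.8 in HL, a response of −2.56 (SE 0.23, adjusted p = 0.000103). Since HL 10 mM was at 0, its response there and its interaction depend on the pseudocount and give no fold change. The interaction was lost in 6 leave-one-out fits, without HL 10 mM replicate 1 (adjusted p = 0.0563) or 2 (0.0566), LL 1 mM replicate 2 (0.0856), or HL 1 mM replicate 1 (0.0707), 2 (0.0587) or 3 (0.0826). It was also lost with genes under 1 FPKM left out (adjusted p = 0.0793) and with unmoderated variances (0.0682), and on the linear scale it turned to −21.1 FPKM (0.0900).

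Gains were divided evenly, with 69 genes that rose and 72 that fell in HL at 1 mM only. The genes that rose had a median response of −0.10 at 10 mM and 0.53 at 1 mM, and in 63 of the 69 the highest mean was that of HL 1 mM. The genes that fell had 0.12 and −0.48, and in 65 of the 72 the lowest mean was that of HL 1 mM. The definition of the class excludes LL 1 mM from these places. HL and LL overlapped at 10 mM in 83 of the 141 genes. The share without overlap, in either direction, was larger in this class than the 30.5% over all genes tested, which selection by a called interaction favours. Both responses had the same sign in 28 of the 141, a number that the definition of the class keeps low. The number of gains ranged from 24 (without LL 1 mM replicate 2) to 415 (without LL 1 mM replicate 3).

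Cz01g09270 rose in HL only at 1 mM nitrate. It was listed at 0 in all 3 libraries of LL 10 mM and in 2 of HL 10 mM, with 0.190 FPKM in the other. At 1 mM its deposited FPKM was 0.430, 1.84 and 2.16 in LL and 14.9, 14.0 and 14.6 in HL, far above every other library. The response at 1 mM was 2.60 (SE 0.19, adjusted p = 2.19e-05). The interaction did not pass with a pseudocount of 0.1 (adjusted p = 0.0689), and no fold change can be given at 10 mM. Cz16g17180, which fell at 1 mM from 68.9, 112 and 96.7 to 27.1, 36.7 and 24.2 deposited FPKM, had 6.83, 23.6 and 25.1 in LL 10 mM and 23.9, 27.2 and 23.6 in HL 10 mM. The first library of LL 10 mM stood apart from the other 5 at that nitrate level. Its interaction of −2.28 (SE 0.57, adjusted p = 0.0457) was kept by the leave-one-out fits without LL 10 mM replicate 1 and without LL 10 mM replicate 3. It was lost in the other 10 (adjusted p 0.0508 to 0.113), with a pseudocount of 0.1 (0.0656) and with unmoderated variances (0.0907), and without LL 10 mM replicate 1 its response at 10 mM turned to −0.095. Its fall at 1 mM was lost without LL 1 mM replicate 1 (adjusted p = 0.055) or 2 (0.114) or HL 1 mM replicate 1 (0.0886) or 3 (0.0983), and with unmoderated variances (0.0691).

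Of the 25 carotenogenic genes that the study lists, 4 had an interaction, which is 16% against 5.48% of all genes tested. They were both genes of neoxanthin synthase (NSY), the gene of zeaxanthin epoxidase (ZEP) and CYP97A1, and all 4 responded to light at 10 mM nitrate and did not pass the test at 1 mM. The list was published with p-values from these samples and is not independent evidence. Light changed 12 of the 25 at 10 mM (7 higher and 5 lower, 48% against 11.5% of all genes) and 7 at 1 mM (5 higher and 2 lower, 28% against 5.24%). The response was kept by 4 genes (CRTISO1, CRTISO2, LCYe and CYP97A2), and it was called at 10 mM only, without an interaction, for 4 genes (PDS Cz08g09110, ZDS, ZISO and CYP97C) and at 1 mM only for 3 (LCYb, CVDE and BKT1). The other 10 passed in neither test of light. At an unadjusted p under 0.05, 11 of the 25 had an interaction. The count of 4 was 2 without LL 10 mM replicate 2, either of HL 10 mM replicates 1 and 2, or LL 1 mM replicate 2. It was 7 without quantile normalization and 6 with median scaling.

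**Figure D4:**
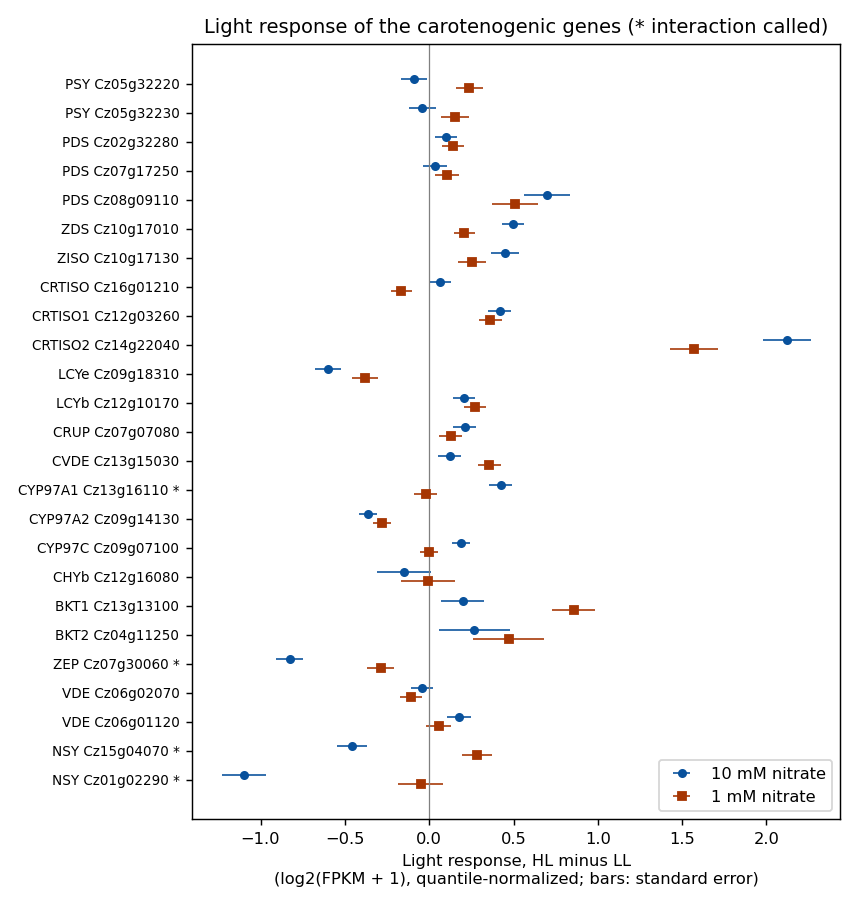
Light response of the 25 carotenogenic genes at 10 mM (circles) and 1 mM nitrate (squares), as HL minus LL on the quantile-normalized log2(FPKM + 1) scale (horizontal axis) with bars for the standard error (SE) of limma. The 4 genes with a called interaction carry an asterisk, and in the NSY genes and ZEP the response at 10 mM lies below 0 and left of that at 1 mM.

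Among the xanthophyll genes, light lowered NSY and ZEP at 10 mM nitrate and not at 1 mM by the test. Neoxanthin synthase makes neoxanthin from violaxanthin, and ZEP makes violaxanthin from zeaxanthin by way of antheraxanthin. The normalized FPKM of NSY Cz01g02290 was 31.8, 43.8 and 42.7 in LL 10 mM and 15.1, 20.3 and 18.0 in HL 10 mM. The levels at 1 mM were 14.0, 15.4 and 15.9 in LL and 15.3, 13.6 and 14.8 in HL. All HL libraries lay below all LL libraries at 10 mM, and at 1 mM the light conditions overlapped at a level near or below that of HL 10 mM. The response was −1.10 (SE 0.13, adjusted p = 0.000505) at 10 mM and −0.051 (SE 0.13, adjusted p = 0.889) at 1 mM, turning to 0.11 without quantile normalization. The interaction was 1.05 (SE 0.19, adjusted p = 0.0153).

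The other NSY gene, Cz15g04070, had a different pattern of levels. Its normalized FPKM was 16.2, 17.8 and 15.1 in LL 10 mM and 10.9, 11.7 and 12.3 in HL 10 mM. At 1 mM it was 16.9, 18.1 and 20.6 in LL and 22.8, 21.7 and 23.7 in HL. The libraries of HL lay below those of LL at 10 mM and above them at 1 mM, without overlap. The response was −0.46 (SE 0.09, adjusted p = 0.00751) at 10 mM and 0.28 (SE 0.09, adjusted p = 0.0928) at 1 mM, and the interaction was 0.74 (SE 0.12, adjusted p = 0.012). The response at 1 mM was called as a rise without LL 1 mM replicate 3 (adjusted p = 0.0344), which would put the gene among the reversed ones. Both NSY interactions were called in all 12 fits that left out 1 library and in the 8 other fits, with adjusted p of at most 0.0439 for Cz01g02290 and 0.0382 for Cz15g04070.

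For ZEP (Cz07g30060) the normalized FPKM was 115, 111 and 109 in LL 10 mM and 57.8, 60.9 and 69.4 in HL 10 mM, and at 1 mM it was 69.7, 60.9 and 66.8 in LL and 55.1, 51.3 and 54.6 in HL. All HL libraries lay below all LL libraries at both nitrate levels, and LL 10 mM stood above the other conditions. The response was −0.83 (SE 0.08, adjusted p = 0.000123) at 10 mM and −0.29 (SE 0.08, adjusted p = 0.0654) at 1 mM, and the interaction was 0.54 (SE 0.11, adjusted p = 0.0267). The response at 1 mM passed as a fall with median scaling (adjusted p = 0.0263), with a trended and robust prior (0.04) and without HL 10 mM replicate 3 (0.0456). The interaction was lost in 7 fits, without LL 10 mM replicate 2 (adjusted p = 0.0582) or 3 (0.0509), HL 10 mM replicate 1 (0.0543) or 2 (0.0584), LL 1 mM replicate 2 (0.0727), or HL 1 mM replicate 1 (0.0578) or 3 (0.058). Violaxanthin de-epoxidase (VDE), which turns violaxanthin back into zeaxanthin in strong light, had interactions of −0.07 for Cz06g02070 (95% confidence interval −0.27 to 0.13) and −0.12 for Cz06g01120 (95% confidence interval −0.35 to 0.10), and neither was called.

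Among the hydroxylases, CYP97A1 (Cz13g16110), a cytochrome P450 that acts on the β-ring in the branch of lutein, rose in HL only at 10 mM. Its normalized FPKM was 61.1, 56.1 and 55.5 in LL 10 mM and 76.8, 78.1 and 77.7 in HL 10 mM, and at 1 mM it was 69.0, 61.5 and 59.9 in LL and 64.6, 61.1 and 61.7 in HL. HL stood above LL without overlap at 10 mM, and the light conditions overlapped at 1 mM. The response was 0.42 (SE 0.07, adjusted p = 0.00278) at 10 mM and −0.02 (SE 0.07, adjusted p = 0.913) at 1 mM, turning to 0.053 without quantile normalization, and the interaction was −0.45 (SE 0.10, adjusted p = 0.0306). The interaction was lost in 8 fits, without LL 10 mM replicate 2 (adjusted p = 0.0684) or 3 (0.07), HL 10 mM replicate 1 (0.0572) or 2 (0.0645), LL 1 mM replicate 1 (0.0609) or 2 (0.0677), or HL 1 mM replicate 2 (0.067) or 3 (0.0641). CYP97A2 (Cz09g14130), of the same P450 family, kept a fall, with −0.36 (adjusted p = 0.00187) at 10 mM and −0.28 (adjusted p = 0.0157) at 1 mM, the latter lost without LL 1 mM replicate 1 (adjusted p = 0.0712) or 2 (0.0518) or HL 1 mM replicate 1 (0.0574) or 2 (0.0637), and without quantile normalization (0.061). With median scaling its fall at 10 mM was lost (adjusted p = 0.054), and on the linear scale its interaction passed (0.0363). The gene of the ε-ring hydroxylase, CYP97C (Cz09g07100), was called at 10 mM only, with 0.19 (adjusted p = 0.047), and that call was lost in every fit that left out 1 library except the one without LL 1 mM replicate 3 (adjusted p 0.0527 to 0.134), and with genes under 1 FPKM left out (0.0504). Its interaction was −0.19 (adjusted p = 0.169) and passed without quantile normalization, at −0.31 (adjusted p = 0.0435), and on the linear scale (0.0230). CHYb (Cz12g16080), which hydroxylates β-carotene, had an interaction of 0.14 (95% confidence interval −0.36 to 0.65), the second widest interval of the 25 genes after that of BKT2.

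The ketolase gene BKT1 (Cz13g13100), whose enzyme introduces the keto groups of canthaxanthin and astaxanthin, rose in HL at 1 mM nitrate. Its normalized FPKM was 30.9, 28.2 and 24.4 in LL 10 mM and 30.1, 29.2 and 37.1 in HL 10 mM, and at 1 mM it was 34.4, 32.7 and 34.9 in LL and 70.8, 65.5 and 52.4 in HL. At 10 mM the light conditions overlapped, and HL 1 mM stood above every other library. The response was 0.20 (SE 0.13, adjusted p = 0.361) at 10 mM and 0.86 (SE 0.13, adjusted p = 0.0039) at 1 mM. The interaction of 0.66 (SE 0.18, 95% confidence interval 0.26 to 1.06, adjusted p = 0.0586) did not pass the test, so that a difference between the nitrate levels was not shown at this threshold. It passed without HL 10 mM replicate 3 (adjusted p = 0.0372) or HL 1 mM replicate 3 (0.0375), with a trended and robust prior (0.0441) and on the linear scale (0.036), and the adjusted p over all alternatives ranged from 0.036 to 0.132. For BKT2 (Cz04g11250) the interaction was 0.20 (95% confidence interval −0.45 to 0.86), which leaves a difference as large as that of BKT1 undetectable.

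**Figure D5:**
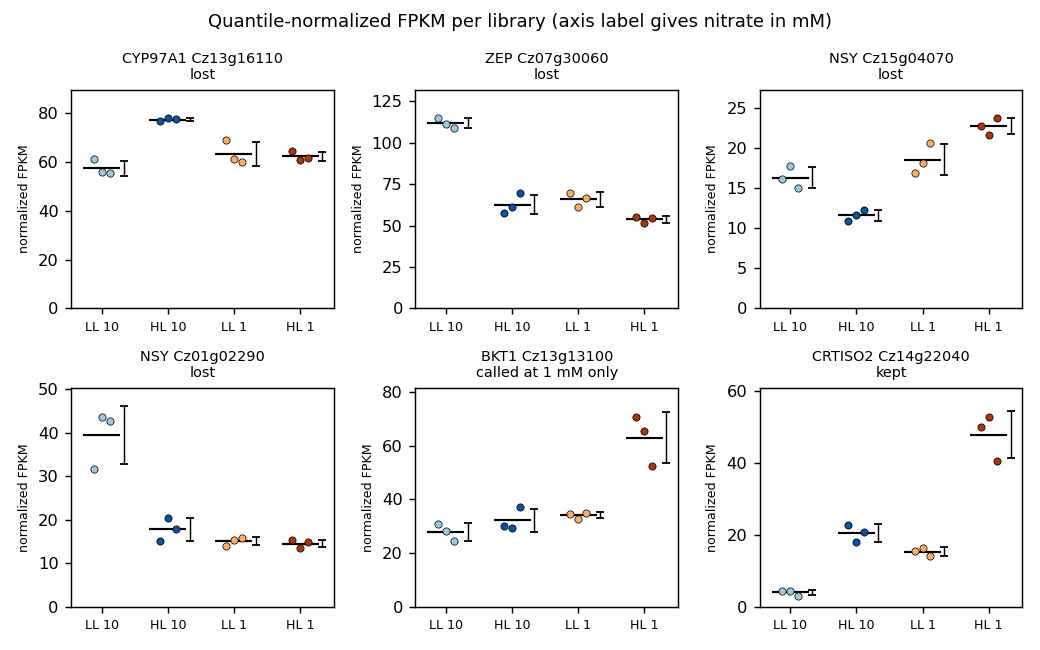
Quantile-normalized FPKM (vertical axis, from 0) of 6 carotenogenic genes in the 3 libraries of each of the 4 conditions, with horizontal lines for means and bars for the SD over 3 libraries. In CYP97A1, ZEP and NSY Cz01g02290 the step between LL and HL is larger at 10 mM, and in NSY Cz15g04070 it points down at 10 mM and up at 1 mM. In BKT1 the step is seen at 1 mM, and CRTISO2 is higher in HL at both.

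No interaction was called for the 4 genes of the cyclase group, although those of LCYe (adjusted p = 0.0108) and CVDE (0.0440) passed on the linear scale. LCYe (Cz09g18310), the ε-cyclase that opens the branch of lutein, kept its fall in HL, with −0.60 (SE 0.08, adjusted p = 0.000794) at 10 mM and −0.38 (SE 0.08, adjusted p = 0.0192) at 1 mM. Its normalized FPKM at 1 mM was 65.8, 62.1 and 59.9 in LL and 51.9, 44.3 and 47.6 in HL, without overlap. The fall at 1 mM was lost without LL 1 mM replicate 1 (adjusted p = 0.0823) or 2 (0.0675) or HL 1 mM replicate 2 (0.0767) or 3 (0.0594), and without quantile normalization (0.0551). LCYb (Cz12g10170), the β-cyclase, was called at 1 mM only, with 0.20 (adjusted p = 0.0707) at 10 mM and 0.27 (adjusted p = 0.0378) at 1 mM, and its interaction was 0.07 (95% confidence interval −0.13 to 0.27). The call at 1 mM was lost in 8 of the 12 leave-one-out fits (adjusted p 0.0541 to 0.15) and with median scaling (0.221). The leave-one-out fits that kept it were those without LL 10 mM replicate 1 or 3, without HL 10 mM replicate 1 and without LL 1 mM replicate 3. The response of LCYb at 10 mM passed without quantile normalization (adjusted p = 0.00201), with median scaling (0.0074), with a trended and robust prior (0.0417), with unmoderated variances (0.0438) and on the linear scale (0.0235). CVDE (Cz13g15030), which the study places with the β-cyclases, was called at 1 mM only as well, with 0.12 (adjusted p = 0.289) and 0.36 (adjusted p = 0.0154), and its interaction was 0.23 (95% confidence interval 0.02 to 0.45, adjusted p = 0.178). Its call at 1 mM was lost without LL 1 mM replicate 1 (adjusted p = 0.068) or 2 (0.0675) or HL 1 mM replicate 2 (0.064) or 3 (0.053), and with median scaling (0.0822).

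Upstream of lycopene no interaction was called for any of the 10 genes, by limma at the adjusted p, while 4 had an unadjusted p under 0.05. Light raised 5 of them at 10 mM and 2 at 1 mM. CRTISO2 (Cz14g22040), a carotene isomerase, kept the largest rise of the 25 genes. Its normalized FPKM was 4.38, 4.54 and 3.04 in LL 10 mM against 22.9, 17.9 and 21.0 in HL 10 mM, and 15.5, 16.5 and 14.2 in LL 1 mM against 50.1, 53.0 and 40.5 in HL 1 mM. No library of HL overlapped with those of LL at the same nitrate level. The responses were 2.12 (SE 0.14, adjusted p = 1.8e-05) and 1.57 (SE 0.14, adjusted p = 0.000107), and the interaction was −0.55 (95% confidence interval −0.997 to −0.11, adjusted p = 0.13). The sign of this interaction depended on the scale. Without quantile normalization it was −0.75 (adjusted p = 0.0429), with median scaling it was −0.91 (0.0237), and on the linear scale, where the step from LL to HL was larger at 1 mM, it was 15.8 FPKM (0.0414).

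The remaining upstream genes had smaller responses. CRTISO1 (Cz12g03260), another carotene isomerase, kept a rise of 0.42 (SE 0.07) at 10 mM and 0.36 (SE 0.07) at 1 mM, and its interaction was −0.06 (95% confidence interval −0.27 to 0.16). Its rise at 1 mM was lost without LL 1 mM replicate 1 (adjusted p = 0.0549) or HL 1 mM replicate 1 (0.0539) or 2 (0.0526), and with median scaling (0.108). For ZDS (Cz10g17010), the ζ-carotene desaturase, the responses were 0.50 (adjusted p = 0.000831) and 0.21 (adjusted p = 0.0941), and the normalized FPKM at 1 mM was 103, 99.5 and 93.4 in LL and 119, 115 and 109 in HL. All HL libraries lay above all LL libraries, and the interaction was −0.29 (95% confidence interval −0.49 to −0.09, adjusted p = 0.0905), which passed without quantile normalization (0.0319), with median scaling (0.0487) and on the linear scale (0.00769), where the rise at 1 mM passed too (0.0404). ZISO (Cz10g17130), the ζ-carotene isomerase, and the phytoene desaturase gene PDS Cz08g09110 were called at 10 mM only, with 0.45 and 0.70, and their interactions were both −0.19 (95% confidence intervals −0.45 to 0.06 and −0.62 to 0.24). At 1 mM, PDS Cz08g09110 passed as a rise without LL 10 mM replicate 1 (adjusted p = 0.0384) or HL 1 mM replicate 3 (0.0338), with genes under 1 FPKM left out (0.0498) and with a trended and robust prior (0.0473), and both genes passed without quantile normalization (0.0218 for PDS and 0.0412 for ZISO). For phytoene synthase (PSY), which makes the first carotenoid of the pathway, the interactions were 0.33 for Cz05g32220 (adjusted p = 0.104) and 0.19 for Cz05g32230 (adjusted p = 0.34), and the former passed without LL 10 mM replicate 3 (adjusted p = 0.0457).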

How the data were processed

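RNA-seq libraries numbered 12, 3 for each of 4 combinations of light and nitrate. The authors made stranded mRNA libraries and processed the reads with the MARACAS pipeline, using FastQC 0.12.0, HISAT2 2.1 for mapping and StringTie 2.2.1 for quantification on the *C. zofingiensis* genome and annotation version 5.6. The deposited table holds values read as FPKM, before the quantile normalization that the authors chose with NormalyzerDE 1.28.0. It carries no counts, and its depth is unknown.

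The analysis was run in R 4.3.3 with limma 3.58.1. Genes at 0 in all libraries were left out, a pseudocount of 1 was added, and log2 values were quantile-normalized across the 12 libraries. Normalized FPKM is this value transformed back. The 4 group means were fitted by limma, whose default moderation gave 2.63 prior degrees of freedom, and 3 contrasts were taken: HL against LL at 10 mM, HL against LL at 1 mM, and the interaction. A gene was called when its p, adjusted by the Benjamini-Hochberg method over all 14916 genes, was under 0.05. Fold changes on the log2(FPKM + 1) scale understate the change of genes with low values. The standard errors and 95% confidence intervals are those of limma. The steps were tested on simulated data.

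The genes named are the 25 carotenogenic identifiers that the study lists, the 2 most positive and the 2 most negative interactions, and 1 gene for each class and direction. For the class genes this is the one with the largest absolute interaction, and for kept genes the one with the largest of the smaller response. Apart from the carotenogenic genes, they had to be called, to have a mean deposited FPKM of at least 1, and to show no overlap of HL and LL libraries in every response that the class calls. Genes named otherwise mark the threshold. The members and lists were chosen with earlier results of these data known. The files do not pair the other identifiers with products, so product lists were not analysed here, and no sequence was used. The alternatives were a pseudocount of 0.1, a minimum mean of 1 FPKM, median scaling of the libraries, no quantile normalization, a trended and robust prior, unmoderated variances, the replicate number as a block, the linear scale, fits to the 6 libraries of a nitrate level, a 2-fold minimum, and leaving out each library in turn.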

Additional observations from a re-analysis of the deposited data

Results flagged for a closer look

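These results stand out because the light response differed between 1 mM and 10 mM nitrate by a test of the difference itself, the interaction contrast of limma with an adjusted p under 0.05. Of the 14916 genes tested, 463 (3.1%) had an interaction called above 0 and 354 (2.37%) had one called below 0.

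Among the carotenogenic genes the interaction was −0.45 for CYP97A1, 0.54 for ZEP, 0.74 for NSY Cz15g04070 and 1.05 for NSY Cz01g02290 on the log2 scale. Each of these genes responded to light at 10 mM nitrate and did not pass the test at 1 mM.

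Among the genes without a name the lost responses had interactions of −3.15 for Cz13g11150, −2.96 for Cz01g41040, 3.46 for Cz07g14090 and 3.37 for Cz05g13170. The reversed responses had −2.40 for Cz14g15210 and 1.82 for Cz08g20170. The strengthened responses had 1.29 for Cz09g05020 and −2.03 for Cz15g09060, and the weakened rise of Cz16g00210 had −0.84. For the gained fall of Cz16g17180 it was −2.28. The fitted interactions of the weakened fall of Cz16g02180, 1.48, and of the gained rise of Cz01g09270, 2.45, involve a condition listed at 0 in all 3 libraries and depend on the pseudocount.

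Of these 16 named interactions, 7 were called under every alternative that was run for single genes. They are those of both NSY genes, Cz13g11150, Cz07g14090, Cz14g15210, Cz08g20170 and Cz01g41040.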

How the results depend on the processing

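Limits are set by 3 libraries per condition, sampled over 3 days in a row with no label that ties a library to a day, by the unknown depth of the FPKM values and by the normalization, since the median FPKM differed between nitrate levels. Low genes depend on the pseudocount and very abundant ones on the quantile step. The cause of the changes below was not tested. Without quantile normalization the light response was called higher for 2127 genes at 10 mM, and higher for 698 and lower for 161 at 1 mM, 781 responses were lost and 7 carotenogenic genes had an interaction. In the same setting the response at 1 mM turned to 0.053 for CYP97A1 and 0.11 for NSY Cz01g02290, and the interaction to −0.067 for PDS Cz02g32280, −0.080 for LCYb and −0.0015 for CYP97A2. With median scaling 686 interactions were lower and 174 genes were higher at 1 mM, and 175 responses were kept, 812 lost and 90 gained. The response of CYP97C at 1 mM turned to −0.087, and the interaction to −0.035 for PSY Cz05g32230, −0.17 for PDS Cz02g32280, −0.18 for LCYb, −0.10 for CYP97A2 and −0.047 for CHYb. A trended and robust prior gave 32 weakened responses. Unmoderated variances gave 236 higher interactions, 13 weakened and 278 lost responses. On the linear scale 651 genes were higher at 1 mM, 45 responses were weakened and 287 gained, 11 carotenogenic genes had an interaction, and the interaction changed sign for CRTISO2 (15.8 FPKM), BKT2 (−0.17 FPKM), Cz15g09060 (775 FPKM) and Cz16g02180 (−21.1 FPKM). With the 6 libraries of a nitrate level fitted alone, 471 genes were higher at 10 mM and 222 higher and 181 lower at 1 mM, with 139 kept, 85 gained and 8 reversed responses. With a 2-fold minimum the interaction counts were 176 and 90, the light response counts 70 and 168 at 10 mM and 41 and 60 at 1 mM, with 37 kept, 3 strengthened, 1 weakened, 100 lost, 24 gained and 0 reversed responses and 1 carotenogenic interaction. Leaving out 1 library gave 122 to 770 higher and 80 to 651 lower interactions, 537 to 890 higher and 544 to 916 lower genes at 10 mM, 176 to 726 higher and 134 to 610 lower genes at 1 mM, 169 to 293 kept, 8 to 21 strengthened, 2 to 19 weakened, 146 to 566 lost, 24 to 415 gained and 12 to 112 reversed responses, and 2 to 5 carotenogenic interactions. It also let values near 0 change sign, with ranges of −0.095 to 0.77 for the response of Cz16g17180 at 10 mM, −0.061 to 0.039 for that of CYP97A1 and −0.028 to 0.019 for that of CYP97C at 1 mM, and −0.11 to 0.00048 for the interaction of CRTISO1 and −0.0057 to 0.071 for that of PDS Cz02g32280. With a pseudocount of 0.1 there were 317 higher and 251 lower interactions, and 543 of the 817 genes were shared. No label says that a replicate number marks a shared day, so the numbers were not taken as pairs, though same-numbered libraries may share one. The correlation of the deviations of same-numbered libraries ranged from −0.06 to 0.44 over 18 pairs (median 0.17, against −0.10 for other numbers), with 12 over 0.1, and 8 of 12 libraries correlated best with their own number, as a hint from the data. The median for other numbers is no separate comparison. Deviations from the mean of a condition sum to 0, so positive values for equal numbers push the others below 0. With the replicate number as a block, 801 interactions were higher and 781 lower, 671 genes were higher and 637 lower at 1 mM, and 795 responses were lost, 358 gained and 119 reversed, and 812 of the 817 interactions were shared. The interaction of PSY Cz05g32220 passed with the block (adjusted p = 0.0489), and no other call of a named gene changed with it.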
